A study of Homo sapiens with 9 samples.

Results

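SNAPC1 and the genes it works with at small nuclear RNA promoters were followed through 9 RNA sequencing libraries. The 8 genes are the 5 subunits of the small nuclear RNA activating protein complex (SNAPc), namely SNAPC1, SNAPC2, SNAPC3, SNAPC4 and SNAPC5, and 3 partner factors, POU2F1, ZNF143 and TBP. They are 8 of the 60609 gene identifiers in the tables, and all 8 were among the 21682 genes with enough counts to be tested. The set was chosen by function, and it was selected on SNAPC1 having been seen higher in both NCBP2 clones. The differences of SNAPC1 from the vector are therefore given as a description, with no test.

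The cells were U2-OS, an established human osteosarcoma line, and libraries were made after removal of ribosomal RNA. Clone A1 and clone A4 overexpress NCBP2, the subunit of the nuclear cap-binding complex that contacts the cap of RNA polymerase II transcripts, and each gave 3 libraries. The control libraries came from 3 clones made the same way with an empty vector, 1 library per clone. Each NCBP2 clone is 1 derivation, and the labels do not say whether its 3 libraries came from separate cultures. The labels give all 9 libraries the same culture conditions, and the promoter that drives NCBP2 is not given in the sources used here.

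Small nuclear RNAs of the spliceosome have short promoters whose core is the proximal sequence element. SNAPc binds this element, and the same complex serves RNA polymerase II at most of these genes and RNA polymerase III at the U6, 7SK and similar genes, where a TATA box beside the element sets the polymerase. SNAPC4 is the large scaffold subunit that carries Myb-type DNA-binding repeats, SNAPC1 and SNAPC3 join it in the DNA-binding core, and SNAPC2 and SNAPC5 are accessory subunits. POU2F1 (Oct-1) and ZNF143 bind the distal element and help to recruit SNAPc, and TBP is the TATA-binding protein.

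The DNA before target genes is shown first, for the tested ones that hold TNACCNTNA, the letters described below. These were 2 of 9 tested polymerase II targets and 4 of 8 tested polymerase III targets. RNU4-1, RNU5A-1 and RNY1, whose levels are also given below, do not hold these letters. Each line gives the 80 bases before the annotated start of a gene, read from GRCh38 on the strand of the gene, 5′ to 3′. Capitals mark TNACCNTNA, letters that follow the core of the proximal sequence element, and, in the polymerase III genes, TTANA between 36 and 19 bases before the start, as in a TATA box. RN7SL1, a polymerase III gene whose promoter is of another kind, is shown for comparison and has no capitals.
RNU4-2, chr12:120291904-120291983, minus strand: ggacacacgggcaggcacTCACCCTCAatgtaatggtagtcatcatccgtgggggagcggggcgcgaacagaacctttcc
RNU5B-1, chr15:65304597-65304676, plus strand: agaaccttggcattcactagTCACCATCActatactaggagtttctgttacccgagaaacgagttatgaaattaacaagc
RNU6-1, chr15:67840046-67840125, minus strand: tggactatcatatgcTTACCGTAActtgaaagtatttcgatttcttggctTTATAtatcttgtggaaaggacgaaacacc
RNU6-8, chr14:32203270-32203349, minus strand: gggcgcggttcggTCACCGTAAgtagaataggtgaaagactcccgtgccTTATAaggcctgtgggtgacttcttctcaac
RNU6ATAC, chr9:134164565-134164644, minus strand: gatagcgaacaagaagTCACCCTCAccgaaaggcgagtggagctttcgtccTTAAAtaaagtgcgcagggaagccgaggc
RNY3, chr7:148983675-148983754, plus strand: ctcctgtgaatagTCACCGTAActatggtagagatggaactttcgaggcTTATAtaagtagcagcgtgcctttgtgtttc
RN7SL1, chr14:49586500-49586579, plus strand: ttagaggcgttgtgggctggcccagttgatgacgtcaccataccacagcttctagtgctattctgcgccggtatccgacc

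In these 6 target genes the promoter letters began 60 to 67 bases before the start. TNACCNTNA stood on the strand of the gene in 6 of 17 listed polymerase II targets (35.3%) and in 7 of 12 matched polymerase III targets (58.3%). It stood in 0 of the 8 listed polymerase III RNAs that do not use SNAPc, and in 0.931% of 35116 promoters of RefSeq genes over windows of the same length. On the other strand it was found in 0 of these 37 genes and in 0.963% of all promoters. TTANA stood in its window in 11 of 12 polymerase III targets, in 1 of 17 polymerase II targets and in 5.54% of all promoters. ATGCAAAT, the octamer that POU2F1 recognizes, was found on either strand of the 250 bases before the start in 9 of 17 polymerase II targets and 7 of 12 polymerase III targets, against 1.63% of all promoters. A match of letters is a description and not a measured binding site, and the absence of a match says only that these letters are not in the window. The letters were chosen after the sequences were seen, so the shares in the target genes are not independent of that choice. Some targets are also copies, as RNU1-2, RNU1-3 and RNU1-4 have the same 80 bases.

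Between 29234022 and 50554080 counts per library fell in genes. Clone A1 replicate A stood apart, with the fewest counts, 21823 genes detected against 25390 to 29787 in the others, and 63.6% of its reads naming no gene against 44.5% to 58.1%. NCBP2 was higher in all 6 NCBP2 libraries than in the vector, with 298.9, 348.4 and 304.7 CPM, counts scaled to the library total (clone A1), 796.3, 1035 and 456.2 CPM (clone A4) and 98.4, 90.6 and 98.3 CPM (vector). By edgeR's quasi-likelihood test clone A1 exceeded the vector by 1.73 on the log2 scale (adjusted p = 0.0327) and clone A4 by 2.99 (adjusted p = 0.000417). Over the 6 libraries together it was 2.50 (adjusted p = 0.123), so the overexpressed gene itself did not pass in that comparison. Of the osteoblast lineage genes RUNX2 (182.4 to 294.0 CPM), SPARC and COL1A1 were high in every library, whereas IBSP had 0 counts in all 9 libraries, SP7 and BGLAP had at most 1 count, and COL1A2, ALPL and SPP1 reached at most 1.15, 4.12 and 2.07 CPM. EPCAM, CDH1 and PTPRC, markers of epithelium and blood, reached at most 5.58, 3.63 and 2.01 CPM, and TERT and TERC, the telomerase genes, had 0 counts. A count of 0 allows up to 3 counts, which is 0.0593 to 0.103 CPM in these libraries and covers counting error only.

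SNAPC1 (ENSG00000023608.5, GRCh38 chr14:61762420-61796428, plus strand, protein coding) encodes a subunit of the DNA-binding core. Its replicates A, B and C measured 92.3, 47.5 and 67.5 CPM (clone A1), 110.8, 74.3 and 75.3 CPM (clone A4) and 29.5, 16.7 and 30.9 CPM (vector). All 6 NCBP2 libraries lay above all 3 vector libraries, and the lowest of them was 1.54 times the highest vector library. Clone A1 averaged 69.1 ± 22.5 CPM, clone A4 86.8 ± 20.8 CPM and the vector 25.7 ± 7.80 CPM (SD, n = 3 each). These values rest on 857 to 5281 counts per library, with 7 to 25 counts on the opposite strand. ENSG00000258964, a noncoding RNA gene at 0 CPM, overlaps 13841 bases of SNAPC1 on the same strand. In bulk RNA, more SNAPC1 RNA in each cell and more cells that express it cannot be told apart.

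The log2 fold change of SNAPC1 against the vector was 1.43 (SE 0.293) in clone A1, 1.76 (SE 0.295) in clone A4 and 1.60 (SE 0.274) over the 6 NCBP2 libraries, a 3.04-fold difference. These 3 values share the same vector libraries. Without clone A1 replicate A the value for clone A1 was 1.17 and that for the 6 libraries, then 5, was 1.54. Of all 21682 genes tested, 407 (1.88%) had a larger log2 fold change over the 6 libraries, 619 (2.86%) in clone A1 and 388 (1.79%) in clone A4. Of the 3832 with at least the average level of SNAPC1, 1 had a larger log2 fold change in each of these 3 comparisons, and it was NCBP2. SNAPC1 was chosen on these same differences, so its place among the genes is a description and no support. The average level used as the cut includes the NCBP2 libraries, where SNAPC1 is high.

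The difference of SNAPC1 between the NCBP2 clones was not used to choose it. Clone A4 stood 0.33 higher than clone A1 on the log2 scale (SE 0.287, approximate 95% interval -0.23 to 0.89), and the clones overlapped. By edgeR's quasi-likelihood test the p was 0.273 and the adjusted p 0.847, so no difference was detected, over an interval that reaches 0.89. NCBP2 itself was 1.26 higher on the same scale in clone A4 than in clone A1 (SE 0.239, adjusted p = 0.0764 by edgeR). Leaving out clone A1 replicate A moved the SNAPC1 value to 0.59 (adjusted p = 0.920 by edgeR).

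**Figure D1:**
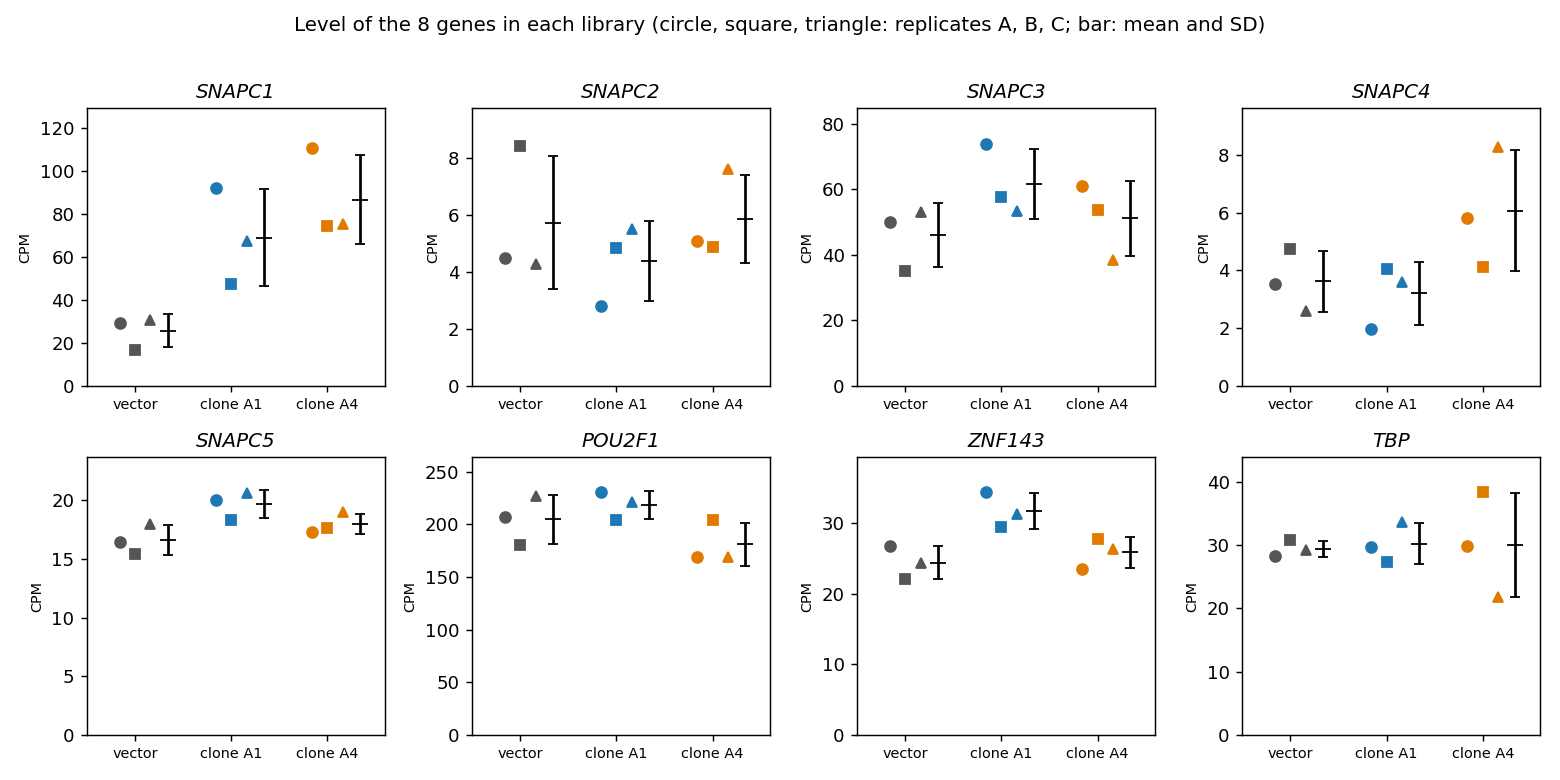
Level of each of the 8 genes in CPM on linear axes that start at 0. Circles, squares and triangles are replicates A, B and C, and black bars are the mean and SD of the 3 libraries of a group. For SNAPC1 the 6 NCBP2 libraries (47.5 to 110.8 CPM) lie above the vector libraries (16.7 to 30.9 CPM), while every other gene overlaps between the vector and at least 1 NCBP2 clone.

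The other core subunits are SNAPC3 and SNAPC4. SNAPC3 (ENSG00000164975.15, chr9:15422734-15465953, plus strand) measured 73.7, 57.7 and 53.5 CPM (clone A1), 61.0, 53.8 and 38.4 CPM (clone A4) and 49.9, 34.9 and 53.0 CPM (vector). The 3 clone A1 libraries lay just above the vector, with the lowest 1.01 times the highest vector library, and clone A4 overlapped both. By edgeR clone A1 exceeded the vector by 0.42 on the log2 scale (SE 0.228, adjusted p = 0.721), and for clone A4 the value was 0.15 (SE 0.228). The last 1888 bases of SNAPC3 overlap PSIP1 on the opposite strand, a gene at 153.3 CPM on average, and the opposite-strand counts of SNAPC3 were 145 to 350.

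SNAPC4 (ENSG00000165684.4, chr9:136375567-136400176, minus strand), the scaffold subunit, had a low level. It measured 1.97, 4.03 and 3.60 CPM (clone A1), 5.81, 4.12 and 8.26 CPM (clone A4) and 3.53, 4.72 and 2.59 CPM (vector), from 56 to 369 counts per library. Clone A4 lay above clone A1, by a log2 fold change of 0.92 (SE 0.390, unadjusted p = 0.0359, adjusted p = 0.689 by edgeR). No other tested member value had an unadjusted p under 0.05 in any of the 4 comparisons. Against the vector the log2 fold change was -0.17 (SE 0.388) in clone A1 and 0.75 (SE 0.387, unadjusted p = 0.0776 by edgeR) in clone A4, and both clones overlapped the vector. Its tested neighbour ENTR1, which lies 1746 bases away, had a log2 fold change of 0.62 over the 6 NCBP2 libraries (SE 0.186, adjusted p = 0.552 by edgeR). On the other side DNLZ, 11823 bases away, was at 1.04 with a wide error (SE 0.966, adjusted p = 0.999 by edgeR).

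The accessory subunits are SNAPC5 and SNAPC2. SNAPC5 (ENSG00000174446.13, chr15:66490135-66497780, minus strand) measured 20.1, 18.4 and 20.6 CPM (clone A1), 17.3, 17.6 and 18.97 CPM (clone A4) and 16.5, 15.4 and 18.0 CPM (vector). Its coefficient of variation over the 9 libraries, 9.13%, was the lowest of the 8 genes. The clone A1 libraries lay above the vector with a log2 fold change of 0.25 (SE 0.190, adjusted p = 0.812 by edgeR), and clone A4 overlapped it. SNAPC5 overlaps 1522 bases of MAP2K1 on the opposite strand. On its own strand it overlaps 1975 bases of ENSG00000261351, a noncoding RNA gene at 1.13 CPM on average. SNAPC2 (ENSG00000104976.12, chr19:7920338-7923250, plus strand) measured 2.82, 4.84 and 5.53 CPM (clone A1), 5.10, 4.87 and 7.64 CPM (clone A4) and 4.51, 8.43 and 4.27 CPM (vector). The highest SNAPC2 library was vector replicate B and the lowest was clone A1 replicate A, and the groups overlapped, with a log2 fold change of -0.16 (SE 0.327) over the 6 NCBP2 libraries.

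Of the partner factors, POU2F1 (ENSG00000143190.23, chr1:167220876-167427345, plus strand) measured 230.2, 204.2 and 221.0 CPM (clone A1), 169.3, 204.2 and 168.7 CPM (clone A4) and 207.2, 180.6 and 226.9 CPM (vector). The log2 level of clone A4 was 0.27 below that of clone A1 (SE 0.154, adjusted p = 0.794 by edgeR), with the closest libraries both at 204.2 CPM when rounded, and both clones overlapped the vector. POU2F1 overlaps 1893 bases of ENSG00000272033, a noncoding RNA gene at 2.76 CPM on average, on the same strand. ZNF143 (ENSG00000166478.10, chr11:9460319-9528524, plus strand), a zinc finger activator, measured 34.5, 29.4 and 31.4 CPM (clone A1), 23.5, 27.7 and 26.4 CPM (clone A4) and 26.8, 22.1 and 24.4 CPM (vector). Clone A1 lay above the vector by a log2 fold change of 0.38 (SE 0.181, unadjusted p = 0.0582, adjusted p = 0.683 by edgeR), and clone A4 lay below clone A1 by 0.30 (SE 0.181, adjusted p = 0.810 by edgeR). TBP (ENSG00000112592.14, chr6:170554302-170572870, plus strand) measured 29.6, 27.4 and 33.7 CPM (clone A1), 29.8, 38.3 and 21.8 CPM (clone A4) and 28.3, 30.8 and 29.2 CPM (vector). TBP differed by less than the spread between libraries in all 4 comparisons, with log2 fold changes from -0.01 to 0.04.

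Read as counts, 0 of the 7 members other than SNAPC1 passed edgeR's quasi-likelihood test in the 3 comparisons with the vector, and 0 had an unadjusted p under 0.05 there, where 5.71%, 7.51% and 5.25% of all genes did (over the 6 libraries, in clone A1 and in clone A4). Of all genes tested, 0.0184% were called over the 6 NCBP2 libraries, 0.0646% in clone A1 and 0.115% in clone A4, so a count of 0 in 7 is near that background. DESeq2 and limma voom with library weights also called 0 of the 7. In clone A1, 3 of the 7 (SNAPC3, SNAPC5 and ZNF143) lay above the vector in all 3 libraries, where 14.2% of all genes did not overlap in either direction. In clone A4 0 of the 7 did, against 12.1% of all genes, and over the 6 libraries 0 of the 7, against 3.74%. The median log2 fold change of the 7 was 0.18 over the 6 libraries, 0.09 in clone A1 and 0.08 in clone A4, beside 0.024, -0.017 and 0.030 over all genes tested.

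Between the clones, 0 of 8 members passed edgeR's test, where 0.161% of all genes did, and 1 of 8 had an unadjusted p under 0.05, as 6.63% of all genes did. DESeq2 and limma voom called 0 of 8 as well. SNAPC4 was higher, and POU2F1 and ZNF143 lower, in all 3 clone A4 libraries than in all 3 clone A1 libraries, 3 of 8 against 13.6% of all genes. The median of the 8 was -0.07 and that of all genes 0.035.

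**Figure D2:**
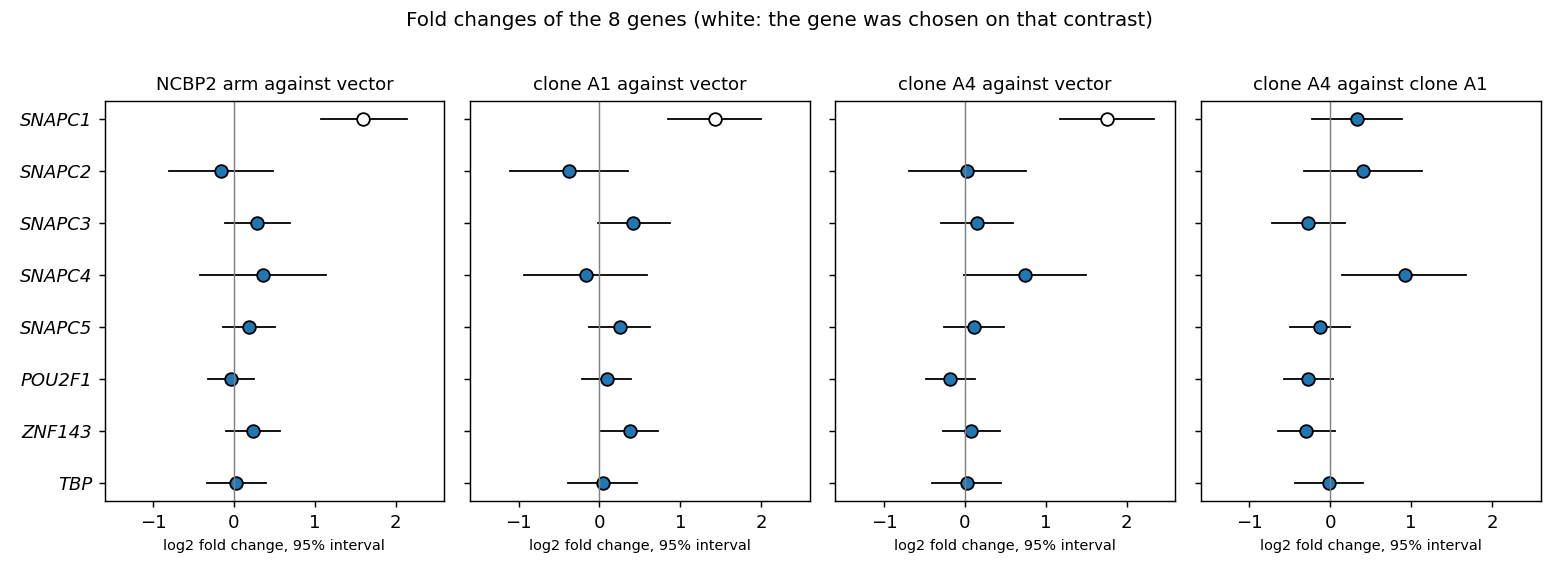
Log2 fold change of the 8 genes by edgeR in 4 comparisons, with 95% intervals. White points are SNAPC1 in the contrasts on which it was chosen, at 1.60, 1.43 and 1.76, and the other genes lie between -0.38 and 0.92. The intervals at the white points describe spread and are no test of SNAPC1.

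Levels were compared between genes per kilobase of exon. In the vector, CPM per kilobase was 12.8 ± 1.45 for POU2F1, 12.7 ± 0.562 for TBP, 9.91 ± 3.01 for SNAPC1, 9.01 ± 1.90 for SNAPC3, 6.71 ± 0.519 for SNAPC5, 5.79 ± 0.560 for ZNF143, 2.48 ± 1.01 for SNAPC2 and 0.481 ± 0.142 for SNAPC4 (SD, n = 3). From POU2F1 down to ZNF143 in this order, the mean ± SD ranges of neighbouring genes overlapped, whereas those of ZNF143 and SNAPC2, and of SNAPC2 and SNAPC4, did not. In the NCBP2 clones SNAPC1 led the order, at 26.7 ± 8.66 CPM per kilobase in clone A1 and 33.5 ± 8.02 in clone A4.

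Within the 5 subunits, SNAPC1 took a larger part in the NCBP2 libraries of the summed CPM per kilobase. Its share measured 59.7%, 46.2% and 54.6% (clone A1), 66.1%, 58.5% and 59.7% (clone A4) and 37.6%, 27.1% and 37.5% (vector). The NCBP2 and vector libraries did not overlap, which the choice of SNAPC1 fixes in part. The share of SNAPC3, the next subunit by level, was 22.0% to 28.5% in clone A1, 15.5% to 21.5% in clone A4 and 28.8% to 32.7% in the vector. The 5 shares make up a whole, so a larger SNAPC1 share lowers the others. The SNAPC3 level itself was not lower, with means of 61.6 CPM in clone A1, 51.1 in clone A4 and 46.0 in the vector.

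**Figure D3:**
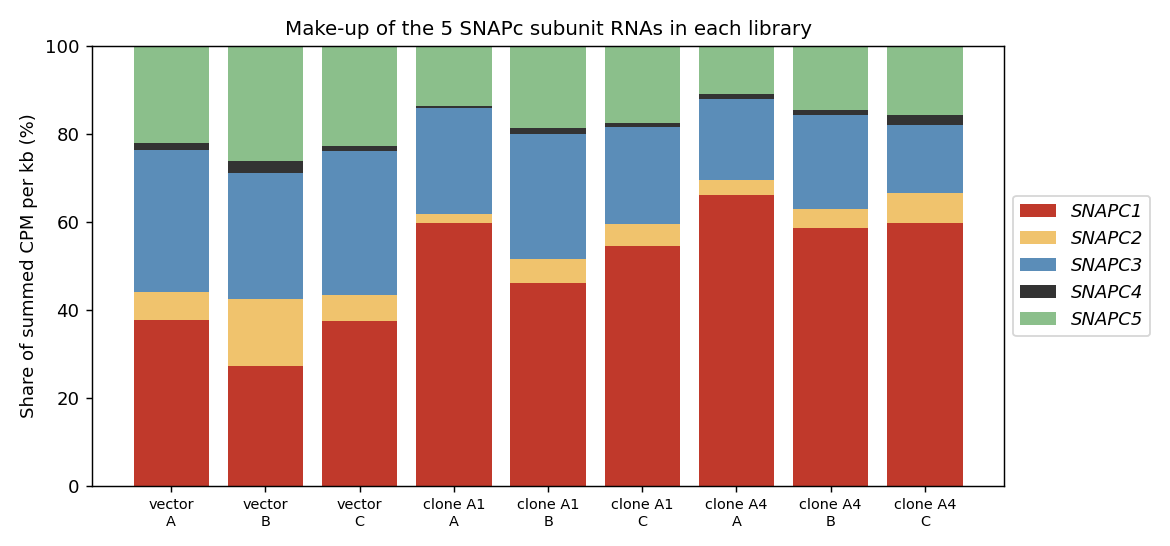
Share of each SNAPc subunit in the summed CPM per kilobase of the 5 subunits, in percent, 1 bar per library. SNAPC1 (red) takes 46.2% to 66.1% in the NCBP2 libraries and 27.1% to 37.6% in the vector libraries, and SNAPC4 (black) at most 2.64%.

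The chromosome around SNAPC1 was read next. HIF1A, the hypoxia-inducible factor gene, ends 14161 bases before SNAPC1, and its log2 fold change was 0.31 in clone A1 and 0.24 in clone A4. On the other side ENSG00000279633, a transcript whose annotation still awaits experimental support, begins 5285 bases past the end of SNAPC1 on the same strand (chr14:61801713-61803634). Its log2 fold change was 1.33 over the 6 NCBP2 libraries (SE 0.448, adjusted p = 0.633 by edgeR), 1.08 in clone A1 and 1.54 in clone A4. Reads that run on past the annotated end of SNAPC1 and reads of a separate transcript cannot be told apart in a table of counts per gene. Of the 13 tested genes within 1 Mb of SNAPC1, 0 were called by edgeR in any comparison. Of all genes, 0.0184% to 0.161% were called by comparison, so a count of 0 in 13 is near that background. The median log2 fold change of the 13 was 0.31 in clone A1 and 0.03 in clone A4.

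**Figure D4:**
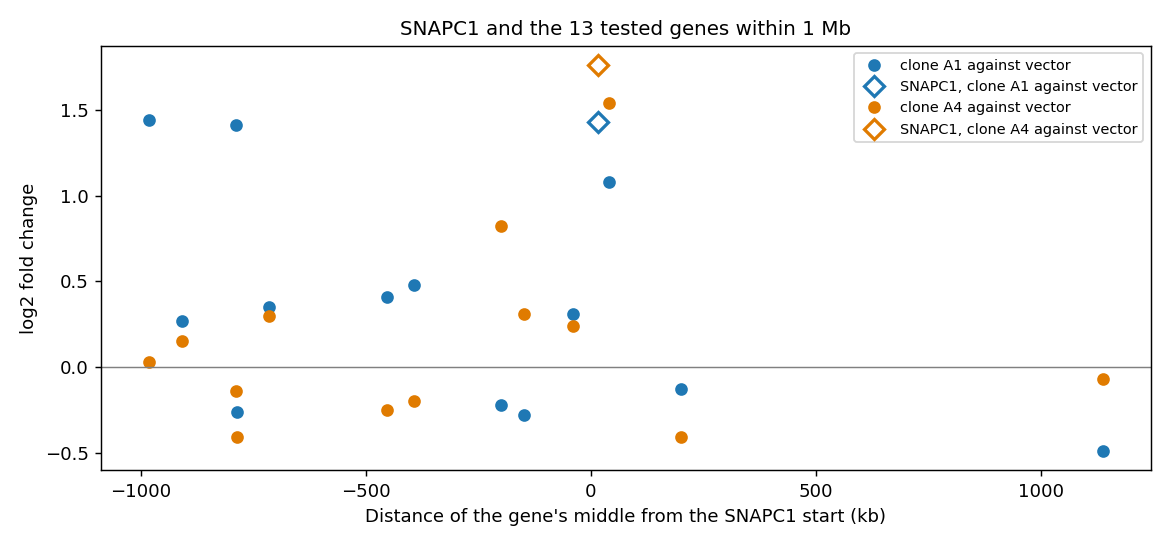
Log2 fold change of the 13 tested genes within 1 Mb of SNAPC1 against the distance of the gene's middle from the SNAPC1 start in kilobases, for clone A1 (blue) and clone A4 (orange). SNAPC1 (open diamonds, 1.43 and 1.76) and the next transcript beyond its end (1.08 and 1.54) are high in both clones.

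The products of SNAPc-dependent promoters were the nearest measured output. Of 17 listed polymerase II targets and 13 polymerase III targets, 29 were matched in the annotation, all but RNY5, and 17 were tested. RNU4-2, a copy of the U4 small nuclear RNA gene and the most abundant target per kilobase, measured 4183, 2539 and 1791 CPM (clone A1), 574.7, 3139 and 2335 CPM (clone A4) and 2258, 2953 and 1731 CPM (vector). The groups overlapped, and the highest and lowest values were both replicate A libraries of an NCBP2 clone. RNU4-1, the other U4 gene, had a log2 fold change of 0.01 over the 6 NCBP2 libraries (SE 0.388), and RNU4-2 one of 0.07 (SE 0.413). RNU5A-1, a U5 gene, measured 377.2, 195.5 and 121.0 CPM (clone A1), 60.5, 213.5 and 84.98 CPM (clone A4) and 104.8, 110.3 and 69.6 CPM (vector). Clone A1 lay above the vector by a log2 fold change of 1.28 (SE 0.461, unadjusted p = 0.0162, adjusted p = 0.492 by edgeR), and clone A4 overlapped it.

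Polymerase III targets had low counts. RNY1, a Y RNA gene, had a log2 fold change of -0.23 over the 6 NCBP2 libraries (SE 0.392), and RNU6ATAC, the U6 of the minor spliceosome, 0.39 (SE 0.457). RNU6-8 was lower in all 3 clone A1 libraries (0.995 to 1.18 CPM) than in the vector (1.29 to 1.97 CPM), with a log2 fold change of -0.65 (SE 0.505, adjusted p = 0.814 by edgeR). RNY3 was lower in all 3 clone A4 libraries than in the vector, with a log2 fold change of -0.77 (SE 0.674, unadjusted p = 0.276 by edgeR). For 11 of the listed RNAs, among them RNU2-1, RNU7-1, RNU12, RN7SK, RMRP and RPPH1, the tables held 0 counts in all 9 libraries, and reads with several alignments, which were not counted, were 6.80% to 16.3% of all reads.

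Summed over the class, the polymerase II targets measured 7174, 4251 and 2984 CPM (clone A1), 1000, 4937 and 3402 CPM (clone A4) and 3728, 4527 and 2734 CPM (vector). Nearly all of this was U4 and U5, with means of 2389 CPM for RNU4-2, 917.9 for RNU4-1, 395.2 for RNU5B-1 and 148.6 for RNU5A-1. The U1 genes were at 0.447 CPM or less, and 5 of the 17 targets had 0 counts, so the sum says little about them. The polymerase III targets measured 27.7, 18.7 and 22.7 CPM (clone A1), 13.3, 28.7 and 37.6 CPM (clone A4) and 22.3, 31.4 and 20.4 CPM (vector). Neither sum differed between the groups beyond the spread of the libraries. Over the 6 NCBP2 libraries the difference in mean log2 CPM was -0.08 for the polymerase II targets and -0.05 for the polymerase III targets, each with p = 0.905 in a two-sided exact permutation test over 84 regroupings, and the adjusted p over the 12 tests of this kind was 0.987. The 84 regroupings can give a p of 0.0119 at the smallest, and the 20 regroupings of 3 against 3 libraries can give 0.10. In clone A4 replicate A, the library with the highest SNAPC1 level, both classes were at their lowest. In clone A1 replicate A, the library with the next highest SNAPC1 level, the polymerase II sum was at its highest. Its polymerase III sum, 27.7 CPM, lay within the vector range. A relation of these sums to SNAPC1 was not tested. The polymerase III RNAs that do not use SNAPc, nearly all RN7SL1, differed by -0.24 (p = 0.774, exact permutation test).

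**Figure D5:**
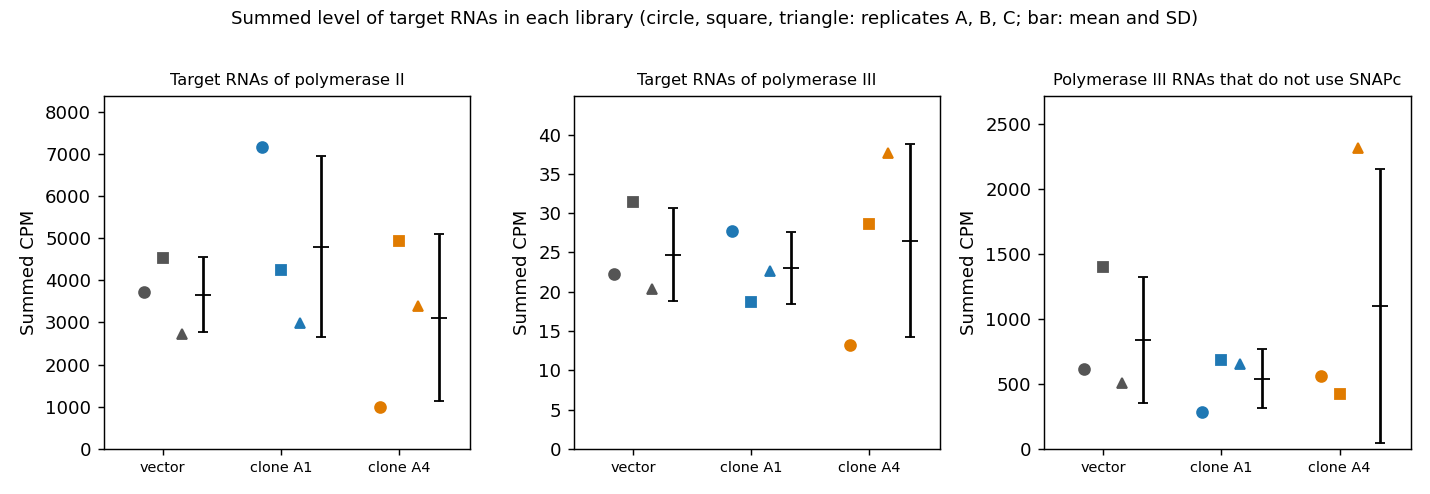
Summed CPM of the polymerase II targets, the polymerase III targets and the polymerase III RNAs that do not use SNAPc in each library, on linear axes that start at 0, with the mean and SD of each group. The groups overlap in all 3 panels, from 1000 to 7174 CPM for the polymerase II targets.

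The other machinery of these promoters was read from 9 lists, target RNAs included, with 121 entries of which 100 were tested. By edgeR's quasi-likelihood test 0 of the 100 passed in each of the 4 comparisons, and 2, 2, 2 and 1 had an unadjusted p under 0.05, over the 6 NCBP2 libraries, in clone A1, in clone A4 and between the clones. DESeq2 and limma voom also called 0 of the 100. Of all genes tested, edgeR called 0.0184%, 0.0646%, 0.115% and 0.161% in the same order, so a count of 0 in 100 is near that background. These unadjusted counts are below the 5.71%, 7.51%, 5.25% and 6.63% of all genes, so the genes behind them, COIL, TAF12, ZNF76 and RNU5A-1, are given for their values only. COIL, which encodes the Cajal body scaffold coilin, measured 44.5, 50.8 and 38.9 CPM in clone A4, below the vector at 73.0, 60.3 and 67.3 CPM, with a log2 fold change of -0.58 (SE 0.189, adjusted p = 0.585 by edgeR). TAF12, a TBP-associated factor, was below the vector in all 6 NCBP2 libraries (13.8 to 19.1 against 20.4 to 24.0 CPM), with a log2 fold change of -0.49 (SE 0.173, adjusted p = 0.661 by edgeR). ZNF76, the closest relative of ZNF143, was at 3.31, 8.47 and 7.97 CPM in clone A1, below the vector at 11.7, 14.5 and 12.3 CPM and below clone A4, with a log2 fold change of -0.96 against the vector (SE 0.325, adjusted p = 0.450 by edgeR).

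The 2 most abundant genes of each list did not pass the test over the 6 NCBP2 libraries. Of the other promoter factors, GTF2A2 of TFIIA had a log2 fold change of 0.20 (SE 0.191) and the activator SP1 -0.19 (SE 0.143). BDP1, a subunit of the polymerase III initiation factor TFIIIB, lay above the vector in all 3 clone A1 libraries, at 0.87 (SE 0.445, adjusted p = 0.699 by edgeR). In the little elongation complex and its partners ICE1 was at 0.07 and AFF4 at -0.10, and in Integrator, which cleaves the 3′ ends of these RNAs, INTS13 was at 0.13 and INTS7 at -0.08. Of the polymerase III list MAF1, its repressor, was at -0.12 and the subunit gene CRCP at -0.08. DRAP1 and TAF1D, of the TBP list, were at 0.07 and 0.00, and the ZNF143 partners HCFC1 and THAP11 were both at -0.16. The medians of these 6 lists lay between -0.16 and 0.07, beside 0.024 over all genes.

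Genes were also ranked by how closely they followed SNAPC1 across the libraries. Of 12411 candidate genes, the 5 with the highest Pearson r of log2 CPM with SNAPC1 over the 9 libraries were TRAK2 (0.96), CFAP20DC (0.96), TSC22D2 (0.95), PLXNC1 (0.94) and NFE2L2 (0.93). These are descriptions over libraries that share clones and the NCBP2 contrast. NCBP2 had an r of 0.86, and the 7 other members ranged from -0.37 (SNAPC2) to 0.67 (SNAPC5). The 5 genes are the top of 12411 ranked on r, which favours higher values than 7 members can reach, so no comparison is drawn. TRAK2, a motor adaptor for mitochondria, measured 98.0, 86.2 and 92.8 CPM (clone A1), 101.1, 98.0 and 90.2 CPM (clone A4) and 73.3, 72.8 and 79.6 CPM (vector). All 5 genes were higher in all 6 NCBP2 libraries than in the vector, where 3.74% of all genes did not overlap in either direction. Their choice by likeness to SNAPC1 favours this, so it is no support. Their log2 fold changes ran from 0.33 (TRAK2, SE 0.128) to 0.71 (CFAP20DC, SE 0.198), smaller than the 1.60 of SNAPC1. None passed edgeR's test, with adjusted p from 0.494 (CFAP20DC) to 0.892 (PLXNC1).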

How the data were processed

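RNA from 9 libraries of U2-OS clones was sequenced after ribosomal RNA removal, per the labels' protocols, though the labels' molecule field names polyadenylated RNA. The authors deposited raw counts of reads per gene, with no normalization. STAR 2.7.1a and GRCh38 are named in the submitters' processing notes, and the annotation used for counting is not given in the sources used here. Column 3, the strand of the gene, was used, and the 4 lines that name no gene (44.5% to 63.6% of reads) were left out. Identifiers were matched to GENCODE release 44 (60295 of 60609). Groups came from the titles.

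Counts were tested with edgeR 4.0.16 in R 4.3.3 (filterByExpr, TMM, robust quasi-likelihood), with Benjamini-Hochberg adjustment over 21682 genes and a threshold of 0.05. A fit with 2 groups set the NCBP2 arm (6 libraries) against the vector (3), and a fit with 3 groups gave the clones. The fitting code was checked on simulated counts with less spread than these libraries have, independent libraries and changes in clone A1 only. That check does not show what could be detected here. P-values measure only the spread between these libraries, which may be technical, and the 6 NCBP2 libraries come from 2 clones. Libraries of a group differed by more than sampling noise (chi-square per degree of freedom of at least 29.8). Alternatives were DESeq2 1.42.0, limma 3.58.1 voom, RLE scaling, no filter, counts without strand, a replicate block, 1 library left out, counts summed per clone, and, for the clones, only their 6 libraries.

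CPM used TMM-scaled library sizes, and log2 CPM a prior count of 2. The members and lists were chosen with earlier results of these data known, and the motif letters after the sequences were seen. All members were named, with list genes past the threshold, the 2 most abundant per kilobase of each list, the 5 genes most like SNAPC1 and the nearest tested genes of SNAPC1 and SNAPC4. The nearest tested genes of the other members are not given. Genes named for an unadjusted p, or for not overlapping, were chosen after their values were seen. Promoter sequences were compared with RefSeq's GRCh38.p14 table.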

Additional observations from a re-analysis of the deposited data

Results flagged for a closer look

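Of 12 quantities checked over the 6 NCBP2 libraries (the 8 members, NCBP2 and the 3 summed RNA classes), 1 had a library far from the others, and chance alone flags about 1 in 20 such groups. The summed level of the polymerase III RNAs that do not use SNAPc was 2310 CPM in clone A4 replicate C, where the other 5 NCBP2 libraries were at 280.8 to 685.3 CPM. The gap to the next library was 0.801 of the whole range, above Dixon's 95% critical value for 6 libraries. Vector replicate B, at 1396 CPM, was the highest of its own group. None of the 8 members was set apart in this way.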

How the results depend on the processing

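Under every alternative run, 0 of the 7 members other than SNAPC1 (0 of 8 between the clones) passed the threshold. SNAPC1 stayed higher in every alternative: its log2 fold change ranged from 1.30 to 1.74 over the 6 NCBP2 libraries, 1.03 to 1.63 in clone A1 and 1.52 to 1.89 in clone A4, the lowest 2 with voom weights. Of 496 fold changes recomputed, 469 kept their direction and 27, all small, reversed, and the cause was not tested. With voom weights these were SNAPC2 at 0.14 over the 6 libraries and 0.06 in clone A1, SNAPC4 at 0.14 in clone A1 and ZNF143 at -0.04 in clone A4. With counts taken without regard to strand these were TBP at 0 over the 6 libraries and -0.01 in clone A4, and SNAPC2 at -0.02 in clone A4. Leaving out 1 library, the range over the 6 libraries was -0.36 to 0.23 for SNAPC2, -0.12 to 0.03 for POU2F1 and -0.05 to 0.11 for TBP. In clone A1 it was -0.59 to 0.01 for SNAPC2, -0.38 to 0.08 for SNAPC4 and -0.05 to 0.10 for TBP, and in clone A4 -0.22 to 0.41 for SNAPC2, -0.01 to 0.31 for SNAPC3 and -0.21 to 0.20 for TBP. Between the clones it was -0.24 to 0.15 for TBP.

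Letters A to C are shared by the groups, and a pairing of the libraries by letter was not established. Same-letter deviations correlated from -0.10 to 0.18, with 6 of 9 pairs over 0.1. Deviations of different letters correlated from -0.27 to 0.22, with 4 of 18 pairs over 0.1. With the replicate block 0 members were called in each comparison, while calls over all genes went from 4 to 13, 14 to 38, 25 to 53 and 35 to 51, over the 6 libraries, in clone A1, in clone A4 and between the clones. With no filter on low counts, 3 listed genes (BDP1, RNU5A-1 and RNU5B-1) were called in clone A1 and 3 (RNU5A-1, RNU5B-1 and RN7SL1) between the clones. Calls over all genes also rose without the filter, to 312 of 37715 in clone A1 and 231 of 37715 between the clones. With the filter they were 14 and 35 of 21682. DESeq2 called 103, 274, 185 and 246 of all genes, and voom 205, 282, 214 and 145. Summed per clone, 0 genes were called over the 2 clones. Of the 5 genes most like SNAPC1, 4 stayed without clone A1 replicate A, and 2 were among the first 5 ranks by Spearman's rho, which ties let 6 genes share. SNAPC2, SNAPC4 and the polymerase III targets rest on low counts, which limits what could be detected.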
